A study of Homo sapiens with 43 samples.

Results

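The genes described here encode 10 transcription factors that hold B cells in their state or move them towards plasma cells: PAX5, EBF1, BCL6, BACH2, PRDM1, XBP1, POU2AF1, SPIB, IKZF1 and IKZF3. They were taken by symbol, with no threshold on a measured value but with earlier results of these data known, and make up 10 of the 58735 genes in the deposited tables. RNA-seq of polyadenylated RNA covered 43 libraries in 22 groups, 39 libraries of GM12878 and 4 of HepG2. GM12878 is a lymphoblastoid cell line, made from B cells with Epstein-Barr virus, and HepG2 is a line from a hepatocellular carcinoma, so each cell type is represented by 1 established line. The study asked how GM12878 cells respond to signals and how those responses depend on BAF, a chromatin remodelling complex whose ATPases SMARCA4 and SMARCA2 are inhibited by BRM014. In a panel, GM12878 cells were treated for 6 h with dexamethasone (Dex, 500 nM), interferon gamma (IFNg, 100 ng/mL), interleukin 2 (IL2, 50 U/mL), lipopolysaccharide (LPS, 10 ng/mL), tumour necrosis factor alpha (TNF, 25 ng/mL) or doxorubicin (Dox, 500 nM), or with DMSO or PBS as vehicle. Each panel group had 2 libraries except Dox, which had 1. In a pretreatment experiment, GM12878 cells received 10 µM BRM014 or DMSO for 30 min before Dex, IFNg or vehicle, which acted for 1 h or 6 h, and each of the 12 groups had 2 libraries. Times are counted from the addition of the stimulus or vehicle, so BRM014 had acted 30 min longer. HepG2 cells received 10 µM BRM014 or DMSO for 24 h, with 2 libraries each. BRM014 was dissolved in DMSO, so the cells of both arms were exposed to that solvent.

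PAX5 and EBF1 switch on the genes that make a cell a B cell, such as those of the B cell receptor. BCL6 and BACH2 are repressors that keep activated and germinal centre B cells from becoming plasma cells, and BCL6 represses PRDM1. PRDM1, also called BLIMP1, promotes plasma cell formation and represses B cell genes, PAX5 and BCL6 among them, and XBP1 drives the secretory apparatus. POU2AF1 is a coactivator of the octamer-binding factors POU2F1 and POU2F2, SPIB is an Ets factor of B cells, and IKZF1 and IKZF3 are zinc finger factors of the Ikaros family. Dex activates the glucocorticoid receptor, which binds glucocorticoid elements in DNA, and IFNg acts on genes through DNA sites called GAS.

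Promoter windows are shown for the 3 genes with the clearest response to 1 of these signals: BCL6 for IFNg, and PAX5 and PRDM1 for Dex. RefSeq (GRCh38.p14) gives the 250 bases before a start for 8 of the 10 genes, in 13 windows, and none was given for POU2AF1 and IKZF3. The windows were searched on both strands for the GAS letters TTCNNNGAA, the glucocorticoid hexamer AGAACA, the full glucocorticoid element, the octamer ATGCAAAT and the interferon-stimulated response element GAAANNGAA. A GAS match stood at -28 to -20 from the BCL6 start and a hexamer at -37 to -32 from the PAX5 start, both in capitals below, and the other 11 windows held no match. The GAS letters overlap none of the other motifs at these places. Of 35116 promoter windows, 6.57% held the GAS letters, 12.4% the hexamer, 1.63% the octamer, 6.88% the response element and 0.00285% the full glucocorticoid element. A match of letters is a description and no evidence of binding. The BCL6 window lies at chr3:187745469-187745718 and the PAX5 window at chr9:37034269-37034518, both on the minus strand. The PRDM1 windows lie at chr6:106086086-106086335 and chr6:106098691-106098940 on the plus strand. Both lie inside the gene as annotated, which begins at 105993463, so neither covers that start. The first and second start below refer to these windows only. All are written 5′ to 3′ on the strand of the gene.
BCL6: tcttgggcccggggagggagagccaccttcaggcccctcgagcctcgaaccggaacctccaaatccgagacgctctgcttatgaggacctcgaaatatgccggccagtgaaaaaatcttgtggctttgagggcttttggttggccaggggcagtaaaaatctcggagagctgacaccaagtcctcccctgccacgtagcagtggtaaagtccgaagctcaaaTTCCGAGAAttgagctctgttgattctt
PAX5: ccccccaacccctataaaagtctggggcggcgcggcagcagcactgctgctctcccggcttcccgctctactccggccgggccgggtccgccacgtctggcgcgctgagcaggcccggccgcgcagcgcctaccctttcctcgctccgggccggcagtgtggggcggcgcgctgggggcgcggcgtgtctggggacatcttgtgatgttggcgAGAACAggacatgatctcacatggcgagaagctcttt
PRDM1 first start: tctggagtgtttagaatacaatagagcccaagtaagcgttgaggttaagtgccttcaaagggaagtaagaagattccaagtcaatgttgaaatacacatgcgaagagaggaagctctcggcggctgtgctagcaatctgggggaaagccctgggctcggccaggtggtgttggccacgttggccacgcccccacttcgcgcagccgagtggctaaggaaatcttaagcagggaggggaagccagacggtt
PRDM1 second start: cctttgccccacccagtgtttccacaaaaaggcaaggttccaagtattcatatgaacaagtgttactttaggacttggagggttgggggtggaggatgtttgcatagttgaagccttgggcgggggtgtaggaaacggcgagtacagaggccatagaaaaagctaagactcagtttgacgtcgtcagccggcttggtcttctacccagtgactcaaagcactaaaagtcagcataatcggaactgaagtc

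GM12878 libraries held 12.9 to 22.9 M counts and HepG2 libraries 3.06 to 19.9 M, with the shallowest library in HepG2 given BRM014. Values of 1 gene across libraries are CPM, counts scaled to library size with TMM factors, and comparisons between genes use TPM, which also scales to transcript length. Changes are log2 fold changes ± SE. Each adjusted p is from edgeR's quasi-likelihood test with Benjamini-Hochberg adjustment over all genes tested in the experiment, unless DESeq2 is named. Where DESeq2 is named, it is the adjusted p that DESeq2 gave for its Wald test. A gene is said to have risen or fallen only with an adjusted p under 0.05. Nothing in the labels gives the replicates as separate cultures, and p-values therefore measure no more than the spread between these libraries, possibly a technical one. In GM12878 the 7 B cell markers summed to 9751 to 13234 CPM with all 7 detected, and in HepG2 the 8 hepatocyte markers summed to 17820 to 37397 CPM. In such bulk RNA, fewer cells of a type and less RNA per cell cannot be told apart. Libraries were stranded, but counts of overlapping genes are uncertain, since no source used here gives the strand setting of the counting. SPIB shares 839 exonic bases with a protein-coding gene on its own strand, whose counts were 0% to 9.3% of those of SPIB in GM12878, while opposite-strand partners of 5 of the other genes held at most 7 counts.

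All 10 genes were detected in GM12878, at very different levels. Per length, XBP1 was the highest in each of the 20 GM12878 groups, with group means of 227 to 320 TPM, and POU2AF1 was the next in each, with 78.5 to 227 TPM. SPIB (31.7 to 107 TPM), IKZF3 (59.8 to 82.2 TPM), PAX5 (38.98 to 70.4 TPM) and IKZF1 (37.3 to 58.8 TPM) followed with ranges that overlapped, and their order differed between groups. PRDM1 stood at 4.10 to 24.7 TPM and EBF1 at 1.90 to 4.33 TPM, seventh and eighth in every group. BCL6 (0.0900 to 2.62 TPM) and BACH2 (0.0200 to 0.835 TPM) were the lowest, and their ranges overlapped too. PRDM1 spanned 6.03-fold between its lowest and highest group mean, SPIB 3.38-fold and POU2AF1 2.90-fold, whereas XBP1 spanned 1.41-fold and IKZF3 1.37-fold. The widest spans, 41.75-fold for BACH2 and 29.2-fold for BCL6, rest on few counts.

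**Figure D1:**
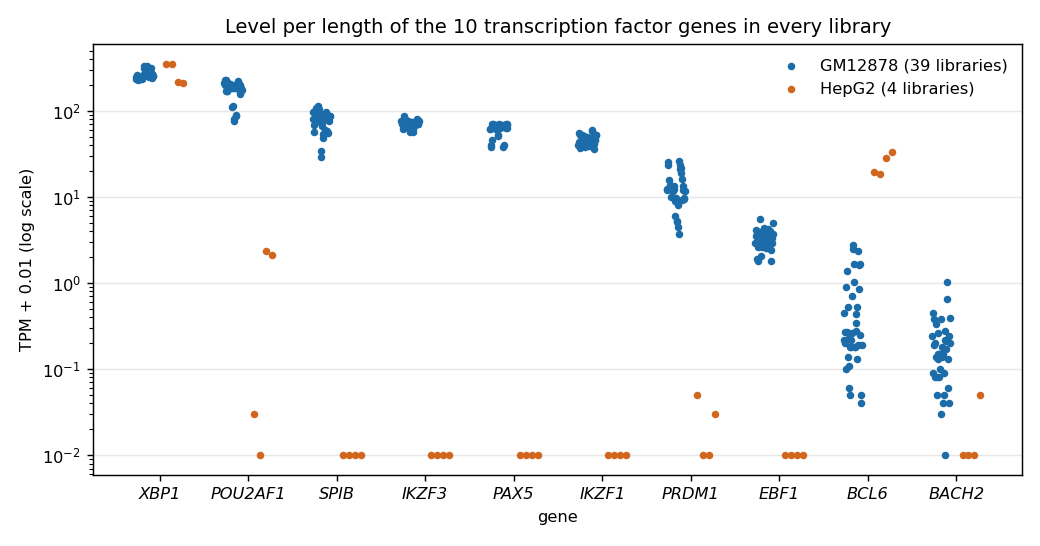
Level per length (TPM plus 0.01, log scale) of each of the 10 genes in the 39 GM12878 libraries (blue) and the 4 HepG2 libraries (orange, with the 2 BRM014 libraries left of the 2 DMSO libraries), 1 point per library. XBP1 is the highest of the 10 genes in both lines, BCL6 is higher in HepG2 than in GM12878, and the other genes are at or near 0 in HepG2 apart from POU2AF1 with DMSO (2.22 TPM on average).

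HepG2 cells held little of these factors apart from XBP1 and BCL6. XBP1 averaged 351 TPM with BRM014 and 212 TPM with DMSO, and BCL6 18.9 TPM with BRM014 and 30.65 TPM with DMSO. POU2AF1 had 0.01 TPM with BRM014 and 2.22 TPM with DMSO. PAX5, EBF1, SPIB, IKZF1 and IKZF3 had 0 counts in all 4 libraries, which allows up to 3 counts per library, or 0.982 CPM in the shallowest and 0.151 CPM in the deepest. The lines were measured in separate experiments, and the difference between them was not tested.

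Across the comparisons, Dex and BRM014 at 6 h moved most of the 10 genes, while IL2, TNF and LPS moved none by the test. In the panel Dex raised 5 genes (PRDM1, IKZF1, POU2AF1, EBF1 and BACH2) and lowered 2 (PAX5 and SPIB), where 25.7% of 15775 tested genes were called, 13% higher and 12.7% lower. After DMSO pretreatment Dex raised 1 gene at 1 h (PRDM1; 0.606% of 15183 genes called). By 6 h it raised 5 (PRDM1, IKZF1, POU2AF1, EBF1 and XBP1) and lowered 2 (PAX5 and SPIB), with 15.6% of genes called, 8.06% higher and 7.53% lower. After BRM014 it raised 1 at 1 h (PRDM1; 0.277% called), and at 6 h it raised 2 (PRDM1 and POU2AF1) and lowered 2 (PAX5 and SPIB; 7.77% called, 3.67% higher and 4.1% lower). The 7 of 10 genes called at 6 h in the panel and after DMSO are a higher share than that of all genes, but the 10 genes were not drawn at random and their count carries no test of its own. DESeq2 called 5 of the 10 in the panel and 6 after DMSO. With 1 library left out, the fits called 5 to 7 in the panel and 5 to 6 after DMSO.

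IFNg in the panel raised BCL6, PRDM1 and PAX5 and lowered POU2AF1, SPIB and IKZF1, where 11.9% of genes were called, 7.11% higher and 4.75% lower. After DMSO it raised 2 genes at 1 h (BCL6 and PRDM1; 0.514% called), of which 1 was left without vehicle replicate 2. By 6 h it raised 2 (BCL6 and XBP1) and lowered 2 (SPIB and IKZF1; 6.62% called, 3.47% higher and 3.15% lower), of which 2 were left without vehicle replicate 2. After BRM014 it raised 1 at 1 h (BCL6; 0.105% called). At 6 h it raised 2 (BCL6 and IKZF3) and lowered 1 (POU2AF1; 1.77% called, 1.5% higher and 0.27% lower), of which 1 was left without vehicle replicate 2 or without either IFNg library.

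BRM014 alone lowered 1 gene at 1 h (PRDM1; 2.05% called). By 6 h it lowered 6 (PRDM1, POU2AF1, SPIB, IKZF1, IKZF3 and BACH2) and raised 1 (XBP1), against 38.5% of genes called, 20.1% lower and 18.4% higher. The median change of the 10 genes was -0.36 at 6 h, where the median of all tested genes was 0.0064. The change from 1 h to 6 h was itself called for 6 of the 10 genes for BRM014 (18.7% of genes called), 3 for Dex after DMSO (7.78%) and 2 for IFNg after DMSO (2.01%). For BRM014 the count was 3 without DMSO+vehicle replicate 2 of 6 h, BRM014+vehicle replicate 1 of 1 h or BRM014+vehicle replicate 2 of 6 h. For Dex it was 1 without DMSO+vehicle replicate 1 of 1 h, DMSO+Dex replicate 1 of 1 h or either DMSO+Dex library of 6 h. For IFNg it was 4 without DMSO+IFNg replicate 2 of 6 h, 1 without DMSO+vehicle replicate 1 of 6 h or DMSO+IFNg replicate 2 of 1 h, and 0 without DMSO+vehicle replicate 2 of either time or DMSO+IFNg replicate 1 of either time. In HepG2, 3 of the 10 genes passed the filter on low counts and all 3 were called, 1 higher and 2 lower, against 42.1% of 13349 genes, 19.3% higher and 22.8% lower.

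**Figure D2:**
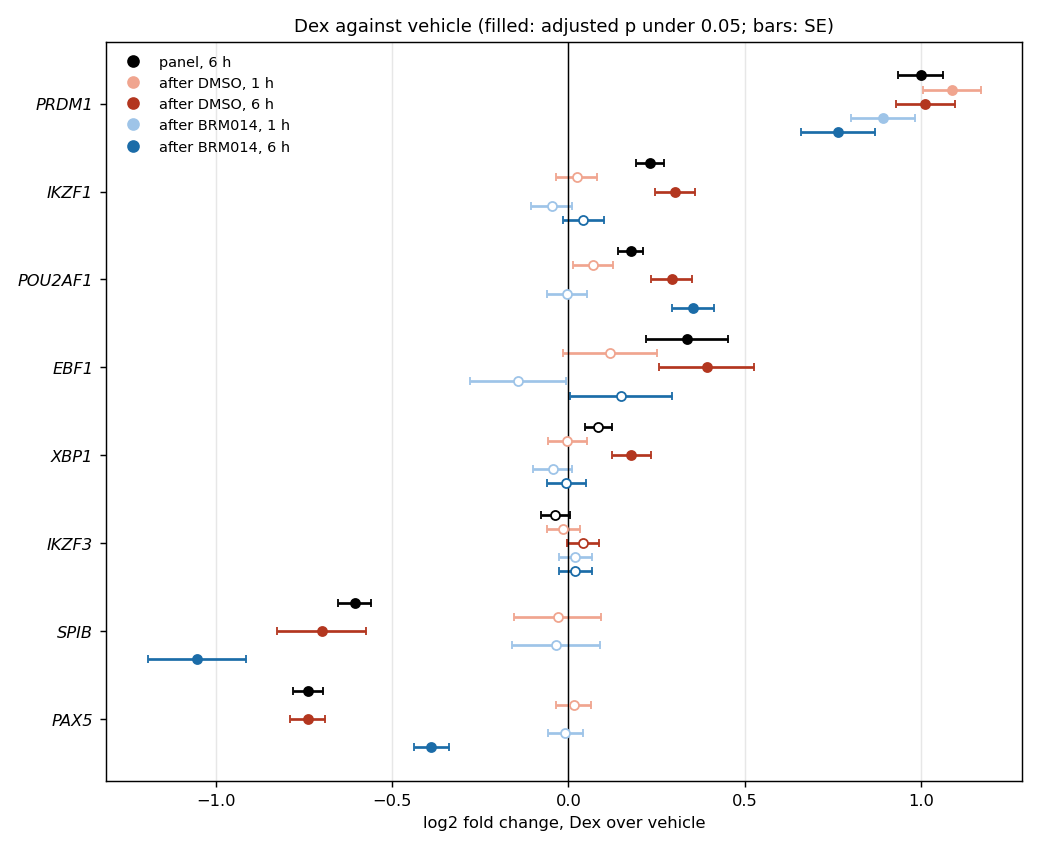
Log2 fold change of Dex over vehicle (horizontal axis, bars SE) for the 8 genes with more than 1 TPM in every GM12878 library, in the panel and after each pretreatment and time, filled where the adjusted p is under 0.05. PRDM1 lies between 0.76 and 1.09 in all 5 comparisons, while PAX5 and SPIB lie below 0 in the 3 comparisons at 6 h and near 0 at 1 h.

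PRDM1 (ENSG00000057657.16, chromosome 6, 105993463 to 106109939, plus strand of hg38) rose with Dex in the panel and in all 4 Dex comparisons of the pretreatment experiment. In the panel it had 81.8 and 74.6 CPM with Dex, against 38.2 and 38.5 CPM with DMSO and 41.2 and 38.7 CPM with PBS. The Dex libraries lay well above all 4 vehicle libraries, a change of 1.00 ± 0.06 (adjusted p = 1.04e-14). After DMSO for 1 h it had 88.8 and 83.7 CPM with Dex, against 44.8 and 36.4 CPM with vehicle (1.09 ± 0.08, adjusted p = 4.38e-11). At 6 h it had 73.6 and 73.0 CPM with Dex, against 36.5 and 36.2 CPM with vehicle (1.01 ± 0.08, adjusted p = 4.34e-11). The groups did not overlap at either time, and the response at 6 h differed from that at 1 h by -0.08 ± 0.12 (adjusted p = 0.821).

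BRM014 lowered PRDM1 within 1 h, the only one of the 10 genes called at that time. Cells given BRM014 had 26.8 and 24.5 CPM with vehicle at 1 h, against 44.8 and 36.4 CPM in cells given DMSO (-0.66 ± 0.09, adjusted p = 1.5e-05). At 6 h they had 15.0 and 13.8 CPM, against 36.5 and 36.2 CPM with DMSO (-1.34 ± 0.10, adjusted p = 2.36e-12). Every BRM014 library lay below both DMSO libraries of its time, and the fall was larger at 6 h than at 1 h by -0.67 ± 0.14 (adjusted p = 0.000472). Dex still raised PRDM1 after BRM014, with 45.9 and 49.0 CPM at 1 h against 26.8 and 24.5 CPM with vehicle (0.89 ± 0.09, adjusted p = 6.87e-08). At 6 h the values were 25.9 and 23.1 CPM with Dex, against 15.0 and 13.8 CPM with vehicle (0.76 ± 0.10, adjusted p = 2.6e-06). The response to Dex after BRM014 differed from that after DMSO by -0.20 ± 0.12 at 1 h (adjusted p = 1) and by -0.25 ± 0.13 at 6 h (adjusted p = 0.511), neither of them called. The level with both compounds at 6 h, 25.9 and 23.1 CPM, lay below that of cells with neither, 36.5 and 36.2 CPM, a difference that was not tested.

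IFNg had a smaller effect on PRDM1. The panel gave 48.7 and 46.1 CPM with IFNg, above all 4 vehicle libraries (0.28 ± 0.07, adjusted p = 0.00409), a call lost without IFNg replicate 1 (0.23, adjusted p = 0.129). After DMSO for 1 h the values were 56.9 and 55.7 CPM with IFNg, against 44.8 and 36.4 CPM with vehicle (0.47 ± 0.08, adjusted p = 0.00101), a call lost without vehicle replicate 2 (0.33, adjusted p = 0.286). By 6 h the groups overlapped, at 33.8 and 39.5 CPM with IFNg and 36.5 and 36.2 CPM with vehicle (0.02 ± 0.09, adjusted p = 0.958).

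**Figure D3:**
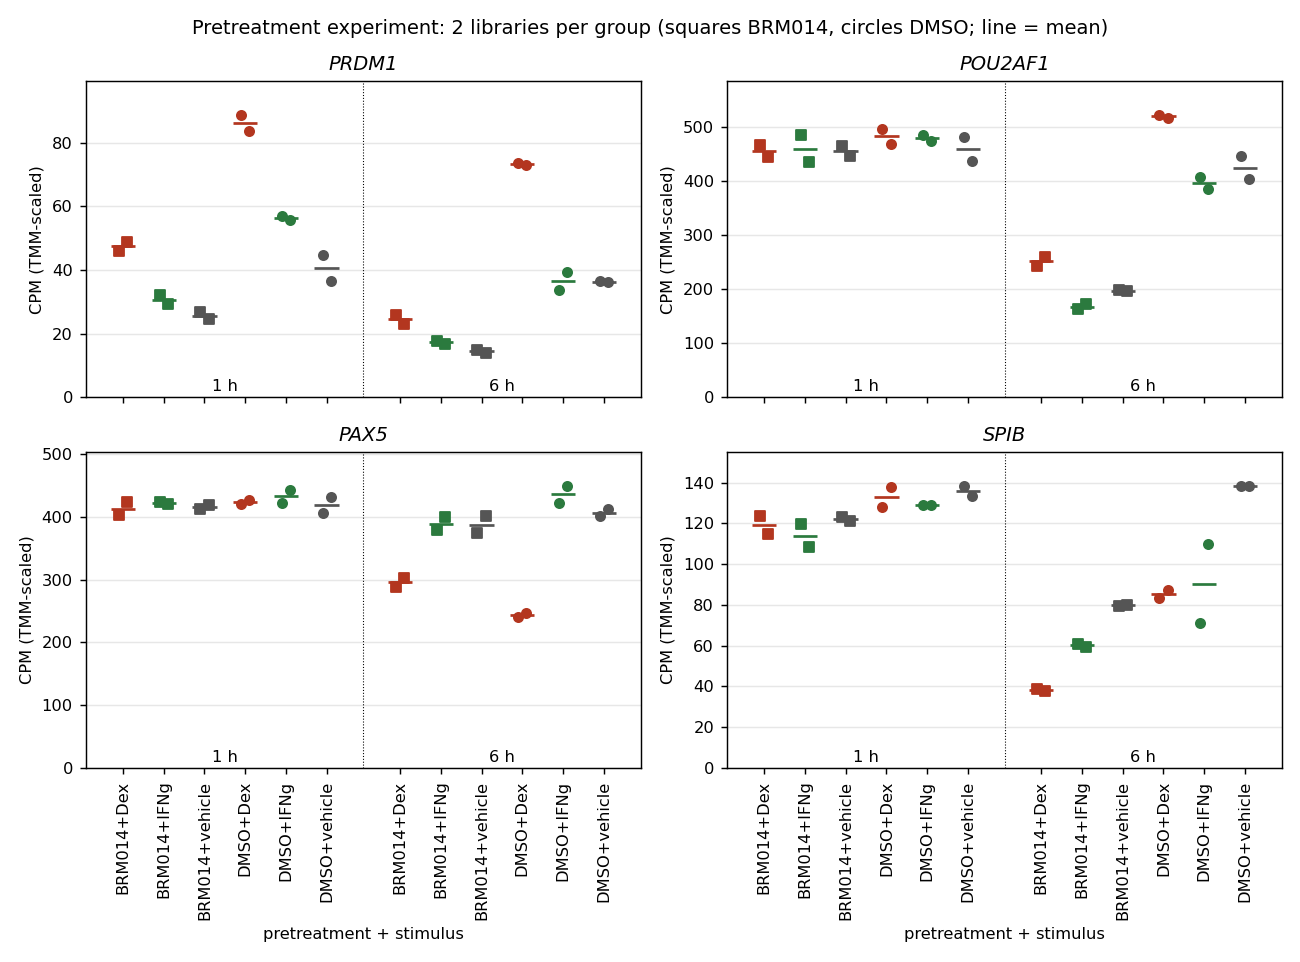
CPM (TMM-scaled, linear axes from 0) of PRDM1, POU2AF1, PAX5 and SPIB in the 24 libraries of the pretreatment experiment, with 2 points and their mean per group, BRM014 as squares and DMSO as circles, Dex in red, IFNg in green and vehicle in grey. PRDM1 is lower with BRM014 at both times and higher with Dex in every arm, POU2AF1 is lower with BRM014 at 6 h, PAX5 is lower with Dex at 6 h, and SPIB is lower with Dex and with BRM014 at 6 h and lowest with both (38.9 and 38.0 CPM).

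XBP1 (ENSG00000100219.16, chromosome 22, 28794555 to 28800597, minus strand), the factor of the secretory programme, moved little and was the only one of the 10 to rise with BRM014 in GM12878. At 6 h it had 412 and 377 CPM with BRM014, against 339 and 322 CPM with DMSO, groups that did not overlap (0.26 ± 0.06, adjusted p = 0.00042). HepG2 cells had 383 and 406 CPM with BRM014, against 281 and 253 CPM with DMSO (0.56 ± 0.09, adjusted p = 7.96e-05). The level of the gene counts spliced and unspliced XBP1 forms of the stress response alike. Dex at 6 h after DMSO gave 374 and 373 CPM, against 339 and 322 CPM with vehicle (0.18 ± 0.06, adjusted p = 0.024). That call was lost without vehicle replicate 2 (0.14, adjusted p = 0.205), Dex replicate 1 (0.17, adjusted p = 0.125) or Dex replicate 2 (0.18, adjusted p = 0.105). IFNg at 6 h after DMSO gave 405 and 354 CPM, against 339 and 322 CPM with vehicle (0.20 ± 0.06, adjusted p = 0.0235), a call lost without IFNg replicate 1 (0.10, adjusted p = 0.531) or vehicle replicate 2 (0.16, adjusted p = 0.215), and when no other groups entered the fit (0.20, adjusted p = 0.317). In the panel the changes were 0.08 ± 0.04 with Dex and 0.10 ± 0.04 with IFNg and were not called, although each was called with 1 library left out: 0.14 without Dex replicate 1 (adjusted p = 0.0371) and 0.11 without PBS replicate 2 (adjusted p = 0.0497).

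Of 20 genes of the unfolded protein response and XBP1 targets, BRM014 at 6 h lowered 12 and raised 0 by edgeR, where 20.1% of all genes were lower and 18.4% higher. At an unadjusted p under 0.05, 14 were lower and 1 higher. Their median was -0.19, and that of all genes 0.0064. ERN1, the endonuclease that splices XBP1 RNA, fell by 0.85 ± 0.10 on the log2 scale (adjusted p = 5.03e-08), the chaperone gene HYOU1 by 0.40 ± 0.05 and HERPUD1, of protein degradation at the endoplasmic reticulum, by 0.38 ± 0.05. IFNg in the panel raised 8 of the 20, where 7.11% of all genes were higher, and at 6 h after DMSO it raised 2, where 3.47% were. Among the 8 in the panel were EDEM1, of the same degradation pathway (0.28 ± 0.04), the translocon gene SSR1 (0.26 ± 0.04) and the disulfide isomerase gene PDIA6 (0.21 ± 0.04). Dex in the panel raised 2 and lowered 7 (13% and 12.7% of all genes), with EDEM1 at -0.35 ± 0.04, the chaperone gene HSPA5 at -0.28 ± 0.04 and PDIA4 at -0.26 ± 0.04.

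Of 16 plasma cell genes, Dex in the panel raised 3 and lowered 5, where 13% of all genes were higher and 12.7% lower: ELL2, an elongation factor gene of antibody-secreting cells, rose by 0.38 ± 0.04, while the surface receptor gene SLAMF7 fell by 0.80 ± 0.04 and CD38 by 0.46 ± 0.06. IFNg raised 3 and lowered 3 (7.11% and 4.75% of all genes), with CD38 at 1.33 ± 0.05, SLAMF7 at 0.34 ± 0.03 and the syndecan gene SDC1 at -0.56 ± 0.06. BRM014 at 6 h lowered 9 of the 16 (20.1% of all genes), and 10 were lower at an unadjusted p under 0.05. SLAMF7 fell by 1.22 ± 0.05, TNFRSF17, the receptor BCMA of plasma cells, by 1.11 ± 0.06 and MZB1, a chaperone of antibody assembly, by 0.80 ± 0.07. The list median at 6 h was -0.35. In HepG2 BRM014 lowered all 6 of the 16 that were tested and 13 of the 20 genes of the unfolded protein response, of which it raised 2, where 22.8% of all genes were lower and 19.3% higher.

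PAX5 (ENSG00000196092.12, chromosome 9, 36833269 to 37034268, minus strand) fell with Dex at 6 h in both experiments and not at 1 h. In the panel it had 236 and 239 CPM with Dex, against 392 and 383 CPM with DMSO and 399 and 412 CPM with PBS. All vehicle libraries lay far above the Dex libraries, a change of -0.74 ± 0.04 (adjusted p = 7.88e-16). After DMSO for 6 h it had 241 and 247 CPM with Dex, against 401 and 413 CPM with vehicle (-0.74 ± 0.05, adjusted p = 6.65e-13). At 1 h it had 420.1 and 427 CPM with Dex, against 406 and 432 CPM with vehicle, groups that overlapped (0.01 ± 0.05, adjusted p = 1), and the difference between the times was -0.75 ± 0.07 (adjusted p = 3.56e-09).

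BRM014 on its own left PAX5 near its level in DMSO, with 374 and 401 CPM at 6 h against 401 and 413 CPM (-0.07 ± 0.05, adjusted p = 0.272). With BRM014, however, Dex at 6 h lowered it less, to 289 and 303 CPM against 374 and 401 CPM with vehicle (-0.39 ± 0.05, adjusted p = 8.55e-07). The difference between the arms was 0.35 ± 0.07 (adjusted p = 0.00248), the only interaction called among the 10 genes for Dex at 6 h, where 2.76% of genes were called. It kept its call in all 13 alternatives, with values of 0.30 to 0.40. IFNg in the panel gave 450 and 457 CPM, above all 4 vehicle libraries (0.19 ± 0.04, adjusted p = 0.00068), and 0.10 ± 0.05 at 6 h after DMSO (adjusted p = 0.308).

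EBF1 (ENSG00000164330.16, chromosome 5, 158695920 to 159099916, minus strand), the partner of PAX5, was expressed at low level, with 82 to 228 counts in a GM12878 library. The panel gave 11.2 and 10.9 CPM with Dex, against 9.21 and 9.60 CPM with DMSO and 9.10 and 7.31 CPM with PBS (0.34 ± 0.12, adjusted p = 0.0286). After DMSO for 6 h it had 11.97 and 13.5 CPM with Dex, against 9.75 and 9.59 CPM with vehicle (0.39 ± 0.14, adjusted p = 0.0455). In CPM the groups did not overlap, but both calls were weak. The length-scaled values did not show a rise. At 6 h after DMSO they were 2.94 and 3.67 TPM with Dex, against 4.93 and 3.73 TPM with vehicle. In the panel Dex gave 3.51 and 3.75 TPM, DMSO 2.9 and 4.11 TPM and PBS 5.48 and 2.06 TPM. The panel call was lost without DMSO replicate 1 (0.32, adjusted p = 0.0707), PBS replicate 2 (0.25, adjusted p = 0.154), Dex replicate 1 (0.32, adjusted p = 0.142) or Dex replicate 2 (0.36, adjusted p = 0.0992), with DESeq2 (adjusted p = 0.166) and against DMSO alone (0.23, adjusted p = 0.236). The pretreatment call was lost without any 1 of its 4 libraries: 0.48 and 0.31 without Dex replicates 1 and 2 (adjusted p = 0.0669 and 0.284), and 0.40 and 0.38 without vehicle replicates 1 and 2 (adjusted p = 0.109 and 0.186). It was also lost with DESeq2 (adjusted p = 0.143), without a filter on low counts (adjusted p = 0.0661) and when no other groups entered the fit (adjusted p = 0.064).

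Genes that PAX5 and EBF1 activate in B cells were mostly lower with Dex and with BRM014. Dex in the panel lowered 14 of 20 and raised 2 (12.7% and 13% of all genes), with a median of -0.34 where all genes had -0.0016. The complement receptor gene CR2 fell by 0.97 ± 0.06 and the inhibitory receptor gene CD22 by 0.91 ± 0.04. BRM014 at 6 h, which left PAX5 uncalled, lowered 16 of 19 and raised 1 (20.1% and 18.4% of all genes), with a median of -0.83 where all genes had 0.0064. CD79B, of the B cell receptor, fell by 1.78 ± 0.09, CD22 by 1.59 ± 0.06 and CIITA, the transactivator of MHC class II, by 1.36 ± 0.07. The 7 B cell markers together summed to 11083 and 11099 CPM with BRM014 at 6 h, against 10291 and 12033 CPM with DMSO. Most of that sum was CD74, at 8658 to 11530 CPM across the GM12878 libraries, and CD79B and CD22 are among the 7. IFNg in the panel lowered 8 and raised 3 of the 20 (4.75% and 7.11% of all genes), with CD22 at -0.48 ± 0.04, the kinase gene BLK at -0.41 ± 0.04 and the chemokine receptor gene CXCR5 at 0.93 ± 0.11.

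BCL6 (ENSG00000113916.17, chromosome 3, 187721377 to 187745725, minus strand), the germinal centre repressor, was almost silent in unstimulated GM12878 cells and rose with IFNg in every comparison. The panel libraries held 37 and 32 counts (2.29 and 1.97 CPM) with IFNg, against 5 and 8 counts (0.227 and 0.398 CPM) with DMSO and 1 and 2 counts (0.0705 and 0.0870 CPM) with PBS. The groups did not overlap, and the change was 3.68 ± 0.48 (adjusted p = 4.99e-07). After DMSO for 1 h there were 92 and 72 counts (4.48 and 4.44 CPM) with IFNg, against 7 and 2 counts (0.430 and 0.112 CPM) with vehicle, a change of 4.04 ± 0.46 (adjusted p = 6.17e-07). At 6 h there were 22 and 33 counts with IFNg, against 1 and 11 with vehicle (2.54 ± 0.49, adjusted p = 0.000682). Without vehicle replicate 2, which held the 11 counts, the change at 6 h became 4.65 (adjusted p = 0.000399). The difference between 6 h and 1 h was -1.50 ± 0.76 and was not called (adjusted p = 0.496).

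BRM014 did not detectably alter this response at the depth available. At 1 h there were 91 and 96 counts (6.00 and 5.39 CPM) with BRM014 and IFNg, against 7 and 5 counts with BRM014 and vehicle (3.94 ± 0.43, adjusted p = 1e-06). At 6 h there were 33 and 51 counts with BRM014 and IFNg, against 7 and 10 with BRM014 and vehicle (2.33 ± 0.44, adjusted p = 0.000942), a call lost without IFNg replicate 2 (1.90, adjusted p = 0.0573). The response after BRM014 differed from that after DMSO by -0.09 ± 0.68 at 1 h and -0.21 ± 0.67 at 6 h (adjusted p = 1 and 0.967), so that a difference of 1 log2 unit could not have been told from none at this depth. BRM014 alone gave 0.69 ± 0.59 at 6 h (adjusted p = 0.381), which became 2.81 (adjusted p = 0.0353) without DMSO vehicle replicate 2. In HepG2, where BCL6 was well expressed, it fell to 40.3 and 41.4 CPM with BRM014, against 64.7 and 71.2 CPM with DMSO (-0.75 ± 0.11, adjusted p = 5.06e-05). Dex in the GM12878 panel changed BCL6 by 1.49, which was not called. Against the PBS libraries alone the change was called (2.42, adjusted p = 0.0317).

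**Figure D4:**
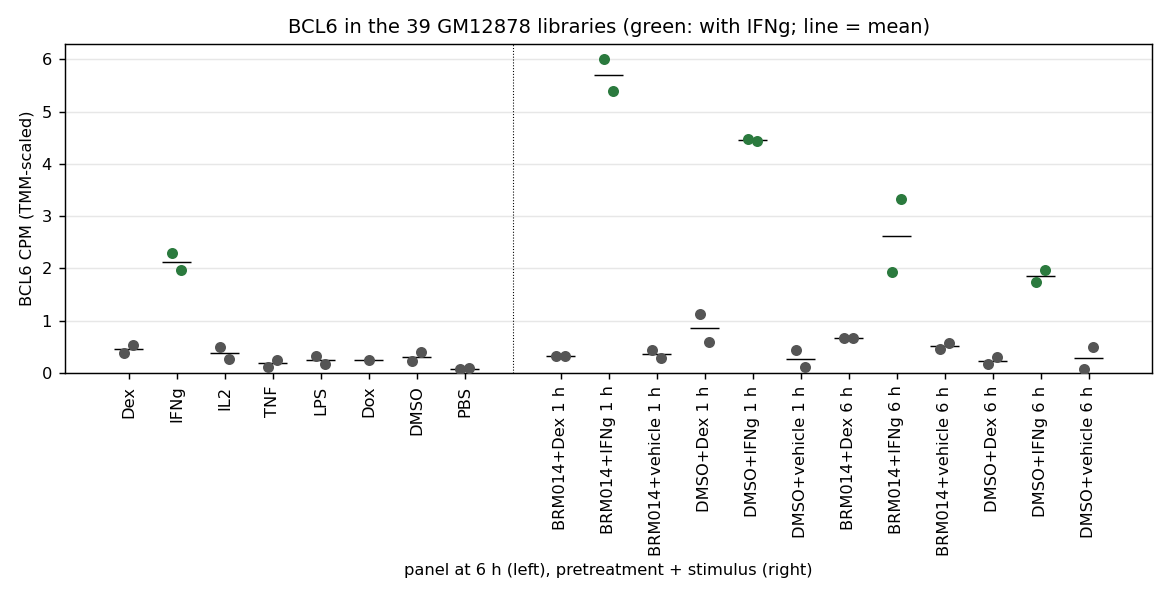
CPM (TMM-scaled, linear axis from 0) of BCL6 in the 39 GM12878 libraries by group, with the panel left and the pretreatment experiment right, IFNg groups in green and the group mean as a line. The 10 libraries with IFNg hold 1.74 to 6.00 CPM and all other libraries at most 1.13 CPM.

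BACH2 (ENSG00000112182.14, chromosome 6, 89926528 to 90296843, minus strand), the other repressor, had at most 31 counts in a library, which limits what can be said of it. BRM014 with vehicle at 6 h left 4 and 0 counts, against 13 and 25 counts with DMSO (-2.97 ± 0.78, adjusted p = 0.00289). Summed over the group and scaled to depth, the level was 7.91-fold lower with BRM014 (4 counts) than with DMSO (38 counts). The call was lost without BRM014 replicate 2, the library at 0 (-1.93, adjusted p = 0.0778), and without BRM014 replicate 1 the fitted value became -7.09 (adjusted p = 0.00127). Dex in the panel gave 19 and 31 counts (1.21 and 1.48 CPM), against 20 and 11 counts with DMSO and 7 and 13 with PBS, and in CPM the groups did not overlap (1.10 ± 0.38, adjusted p = 0.0297). That call was lost without DMSO replicate 2 (0.95, adjusted p = 0.0991), PBS replicate 2 (1.16, adjusted p = 0.0531), Dex replicate 1 (1.23, adjusted p = 0.0698) or Dex replicate 2 (0.95, adjusted p = 0.228), with DESeq2 (adjusted p = 0.18) and against DMSO alone (0.88, adjusted p = 0.156). After DMSO, Dex at 6 h gave 0.16 ± 0.54 (adjusted p = 0.901).

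Of 11 genes for cofactors and relatives of BCL6 and BACH2, Dex in the panel lowered 3 and raised 1, where 12.7% of all genes were lower and 13% higher: CTBP1, a corepressor gene, rose by 0.39 ± 0.04, while BACH1, the close relative of BACH2, fell by 0.47 ± 0.08 and BCOR, the BCL6 corepressor gene, by 0.29 ± 0.05. BRM014 at 6 h lowered 5 of 11 (20.1% of all genes), BCOR by 1.19 ± 0.08, the small Maf gene MAFG by 0.56 ± 0.08 and the deacetylase gene HDAC3 by 0.23 ± 0.05, and 6 were lower at an unadjusted p under 0.05. In HepG2 it raised 8 of the 11, where 19.3% of all genes were higher. IFNg in the panel raised 1 of the 11, the deacetylase gene HDAC4 (0.64 ± 0.15), and lowered 1, where 7.11% and 4.75% of all genes were called.

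POU2AF1 (ENSG00000110777.11, chromosome 11, 111352255 to 111455630, minus strand), the octamer coactivator, fell with BRM014 at 6 h and not at 1 h. At 6 h it had 198 and 197 CPM with BRM014, against 447 and 404 CPM with DMSO, groups that lay far apart (-1.11 ± 0.06, adjusted p = 1.11e-15). At 1 h it had 466 and 447 CPM with BRM014, against 483 and 438 CPM with DMSO (-0.01 ± 0.06, adjusted p = 0.995). The difference between the times was -1.09 ± 0.08 (adjusted p = 1.56e-11). HepG2 cells held 1 count in all with BRM014 and 78 with DMSO, a ratio of CPM of 0.0150 (95% interval 0.000374 to 0.0859, for counting error).

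Dex raised POU2AF1 slightly in the panel, to 552 and 552 CPM, against 499 and 474 CPM with DMSO and 499 and 483 CPM with PBS (0.18 ± 0.04, adjusted p = 0.000223). At 6 h after DMSO it had 523 and 518 CPM with Dex, against 447 and 404 CPM with vehicle (0.29 ± 0.06, adjusted p = 0.000261), and after BRM014 244 and 260.5 CPM with Dex, against 198 and 197 CPM with vehicle (0.35 ± 0.06, adjusted p = 7.06e-05). The response to Dex differed between the arms by 0.06 ± 0.08 (adjusted p = 0.863). IFNg lowered it in the panel to 425 and 426 CPM (-0.20 ± 0.04, adjusted p = 0.000129). At 6 h after DMSO it had 386 and 408 CPM with IFNg, against 447 and 404 CPM with vehicle. Those groups overlapped, and the change was not called. After BRM014 for 6 h it had 163.5 and 172 CPM with IFNg (-0.24 ± 0.06, adjusted p = 0.0306), a call lost without BRM014+vehicle replicate 1 (-0.23, adjusted p = 0.213) or 2 (-0.24, adjusted p = 0.175) or BRM014+IFNg replicate 1 (-0.20, adjusted p = 0.42) or 2 (-0.27, adjusted p = 0.0700).

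The octamer-binding factors that POU2AF1 serves were measured beside it. POU2F2, the B cell member, had 94.4 ± 2.63 CPM with BRM014 at 6 h and 137 ± 10.9 CPM with DMSO (SD, n = 2 each; -0.54 ± 0.07, adjusted p = 2.28e-07), and it fell with IFNg in the panel (-0.36 ± 0.06, adjusted p = 3.28e-05). POU2F1, which is found in most cells, changed by 0.02 ± 0.11 with BRM014 at 6 h (adjusted p = 0.887). POU2F3 was near the limit of detection, with 0 counts over both BRM014 libraries and 10 over both DMSO libraries, at least 2.78-fold lower against 3 counts over the group. POU2AF2 was at or near 0 in both lines. POU2AF3 was too low to test in GM12878 and fell by 2.08 ± 0.29 with BRM014 in HepG2 (2.87 ± 1.26 CPM with BRM014 and 9.98 ± 1.17 CPM with DMSO, SD, n = 2 each).

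SPIB (ENSG00000269404.6, chromosome 19, 50418938 to 50431314, plus strand), the Ets factor, was lowered by Dex and by BRM014, each at 6 h. The panel gave 80.9 and 83.4 CPM with Dex, against 117 and 125 CPM with DMSO and 132 and 128 CPM with PBS (-0.61 ± 0.05, adjusted p = 1.34e-12). After DMSO for 6 h it had 83.2 and 87.3 CPM with Dex, against 138.2 and 138.5 CPM with vehicle (-0.70 ± 0.13, adjusted p = 0.00106). BRM014 with vehicle at 6 h gave 79.7 and 79.8 CPM, against 138.2 and 138.5 CPM with DMSO (-0.80 ± 0.13, adjusted p = 0.000161). None of these groups overlapped. With BRM014, Dex lowered it further, to 38.9 and 38.0 CPM against 79.7 and 79.8 CPM (-1.05 ± 0.14, adjusted p = 0.000137). The 2 responses to Dex differed by -0.35 ± 0.19 (adjusted p = 0.53), which was called when no other groups entered the fit (-0.36, adjusted p = 0.0166). At 1 h Dex gave -0.03 ± 0.12 after DMSO and BRM014 gave -0.15 ± 0.12, neither of them called.

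IFNg lowered SPIB in the panel to 102 and 110.3 CPM (-0.24 ± 0.05, adjusted p = 0.000284). After DMSO for 6 h its replicates stood apart, at 70.9 and 110.1 CPM against 138.2 and 138.5 CPM with vehicle (-0.60 ± 0.13, adjusted p = 0.00887). The value became -0.33 without IFNg replicate 1 (adjusted p = 0.00165) and -0.96 without IFNg replicate 2 (adjusted p = 3.08e-11), and the call was lost without vehicle replicate 2 (-0.60, adjusted p = 0.0613) and when no other groups entered the fit (-0.61, adjusted p = 0.468). After BRM014 for 6 h it had 61.0 and 59.5 CPM with IFNg, against 79.7 and 79.8 CPM with vehicle, groups that did not overlap. This change was not called by edgeR (-0.40 ± 0.13, adjusted p = 0.254), but it was by DESeq2 (adjusted p = 0.0149) and when no other groups entered the fit (-0.39, adjusted p = 6.43e-06). Without DMSO+IFNg replicate 2 of 6 h the interaction of IFNg and BRM014 at 6 h was called for SPIB (0.56, adjusted p = 0.00132), IKZF1 (0.40, adjusted p = 0.0142) and XBP1 (-0.39, adjusted p = 0.00806). With all libraries, edgeR called 0 of the 10 genes there, DESeq2 called 0, and 4 had an unadjusted p under 0.05, where 0.198% of genes were called.

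**Figure D5:**
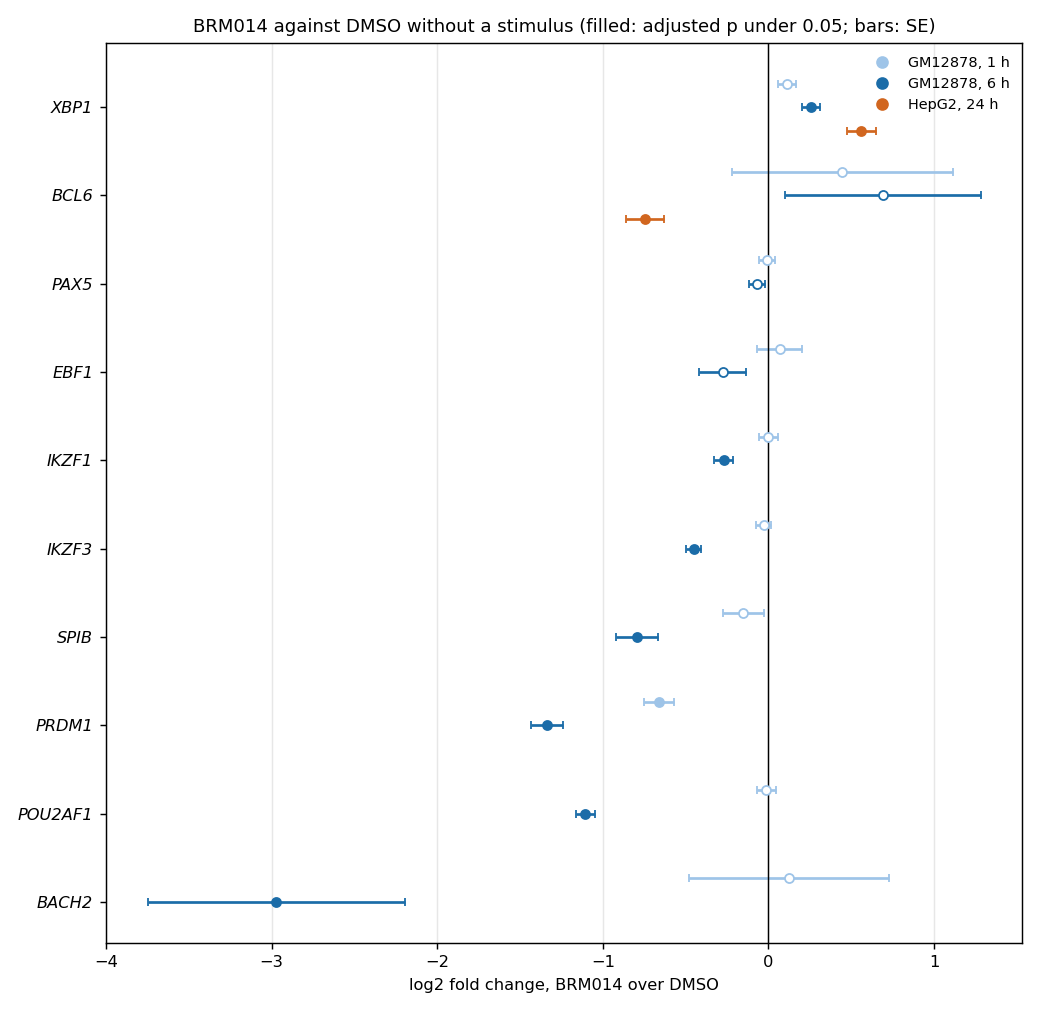
Log2 fold change of BRM014 over DMSO without a stimulus (horizontal axis, bars SE) in GM12878 at 1 h and 6 h and in HepG2 at 24 h, filled where the adjusted p is under 0.05; POU2AF1 in HepG2, which had 1 count with BRM014, is left out. At 6 h 6 genes have filled points below 0 and XBP1 one above it, and at 1 h PRDM1 stands apart at -0.66.

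IKZF1 (ENSG00000185811.18, chromosome 7, 50304068 to 50405101, plus strand) and IKZF3 (ENSG00000161405.16, chromosome 17, 39757718 to 39864312, minus strand), which encode Ikaros and Aiolos, are lymphoid factors of their family. IKZF1 had 172 and 169 CPM with Dex in the panel, against 138 and 134.5 CPM with DMSO and 153 and 156 CPM with PBS (0.23 ± 0.04, adjusted p = 1.92e-05). After DMSO for 6 h it had 195 and 193 CPM with Dex, against 152 and 163 CPM with vehicle (0.30 ± 0.06, adjusted p = 0.000156). After BRM014 the groups overlapped, at 139 and 130.1 CPM with Dex and 134 and 128 CPM with vehicle (0.04 ± 0.06, adjusted p = 0.785), but the difference between the arms was not called (-0.26 ± 0.08, adjusted p = 0.0907). IFNg moved it the other way, to 127 and 126 CPM in the panel (-0.20 ± 0.04, adjusted p = 0.000633) and, after DMSO for 6 h, to 118.5 and 133 CPM (-0.32 ± 0.06, adjusted p = 0.000291). The panel call for IFNg was lost against the DMSO libraries alone (-0.11, adjusted p = 0.161), and that at 6 h when no other groups entered the fit (adjusted p = 0.052). BRM014 at 6 h gave 134 and 128 CPM, against 152 and 163 CPM with DMSO (-0.27 ± 0.06, adjusted p = 0.000323).

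IKZF3 did not respond to Dex by the test, with -0.04 ± 0.04 in the panel and 0.04 ± 0.05 at 6 h after DMSO (adjusted p = 0.569 and 0.649). BRM014 at 6 h lowered it to 334 and 329.7 CPM, against 456.5 and 452 CPM with DMSO (-0.45 ± 0.05, adjusted p = 3.26e-09), and at 1 h the change was -0.03 ± 0.05 (adjusted p = 0.961). With BRM014, IFNg at 6 h gave 396 and 385 CPM, above both BRM014+vehicle libraries (0.23 ± 0.05, adjusted p = 0.00235). That call was lost without IFNg replicate 1 (0.22, adjusted p = 0.0656) or vehicle replicate 2 (0.22, adjusted p = 0.0552). Of the other family members, IKZF2, or Helios, rose with Dex in the panel (0.23 ± 0.04, adjusted p = 5.84e-06) and fell with BRM014 at 6 h (-0.49 ± 0.10, adjusted p = 0.00073). IKZF4, or Eos, rose with BRM014 at 6 h (0.41 ± 0.13, adjusted p = 0.0135), and IKZF5 changed by -0.21 ± 0.10 (adjusted p = 0.0824).

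Among 27 further transcription factors of B cells, Dex in the panel raised 9 and lowered 12, where 13% of all genes were higher and 12.7% lower. BATF, an AP-1 factor needed for class switching, rose by 1.08 ± 0.05, FOXO1, an early B cell factor, by 0.99 ± 0.06 and IRF4, which promotes plasma cells, by 0.62 ± 0.03. IFNg raised 5 and lowered 8 (7.11% and 4.75% of all genes), with TBX21, or T-bet, at 2.40 ± 0.08, IRF8 at 0.90 ± 0.04 and ID3, an inhibitor of E proteins, at -0.47 ± 0.06. BRM014 at 6 h lowered 16 of the 27 and raised 1 (20.1% and 18.4% of all genes), with a median of -0.56. With BRM014 at 6 h in GM12878, MEF2B, a germinal centre factor that acts on BCL6, fell by 1.33 ± 0.09, IRF8 by 1.02 ± 0.06 and RUNX3 by 0.67 ± 0.05. In HepG2 BRM014 raised 8 and lowered 2 of the 16 tested there (19.3% and 22.8% of all genes).

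IL2, TNF and LPS called 0 of the 10 genes by edgeR and 0 by DESeq2, where 0.203%, 0.019% and 0% of all genes were called. At an unadjusted p under 0.05 there were 2 of the 10 for IL2 and 1 each for TNF and LPS. Against the DMSO libraries alone IKZF1 was called for IL2 (0.19, adjusted p = 0.0497) and TNF (0.21, adjusted p = 0.0336). At 1 h the interactions of BRM014 called 0 of the 10 genes by edgeR and 0 by DESeq2 for Dex (0.119% of all genes called, 1 of the 10 at an unadjusted p under 0.05) and 0 by either for IFNg (0.0659% called, 0 of the 10 at an unadjusted p under 0.05). The single Dox library has no replicate check. It lay below all 4 vehicle libraries for 8 of the 10 genes, where 28.3% of all genes did so, and within their range for PRDM1 (39.03 CPM with Dox, 38.2 to 41.2 CPM with vehicle) and BCL6. PAX5 had 293 CPM with Dox, against 383 to 412 CPM with vehicle, and EBF1 6.01 CPM, against 7.31 to 9.60 CPM.

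The genes whose pattern over the 12 pretreatment groups was most like that of a member were found by Pearson's r between group means of log2 CPM, among the 9211 or 9212 other genes with at least 10 CPM, and only for the 5 members that spanned at least 1 log2 unit. These groups share libraries and treatments, so r is a description. For PRDM1 they were TRIB1, a pseudokinase gene (0.954), NFKBIA, the inhibitor of NF-kB (0.942), and IRF4 (0.935), which changed by -1.26 ± 0.11, -0.84 ± 0.06 and -1.20 ± 0.09 with BRM014 at 6 h. For POU2AF1 they were KIF1C, AGPAT2 and IMPDH1 (0.989 to 0.995). For SPIB they were IFNGR1, a chain of the IFNg receptor (0.982), ZNF385A (0.976) and KIF26B (0.974), which changed by -0.64 ± 0.04, -0.76 ± 0.09 and -1.01 ± 0.07 with Dex in the panel. For BCL6 they were POFUT2 (0.952), IRF1, the IFNg-induced factor (0.892), and TXNL4B (0.864), of which POFUT2 was called in none of the 23 comparisons, with changes of at most 0.15. BACH2 had too few counts for its likeness to other genes to be read.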

How the data were processed

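The authors deposited 1 table per library with an expected count and a TPM value for each gene. Per the submitters' processing notes, STAR, RSEM and hg38 were used, and versions are not given in the sources used here. Each table held 59526 identifiers, of which 746 without an Ensembl identifier and 45 copies on the Y pseudoautosomal region had no counts and were left out. The deposited expected counts were not whole for 2.51% to 4.81% of values (tolerance 0.005) and were rounded. The deposited TPM values were used for levels only.

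Differences were tested with edgeR 4.0.16 in R 4.3.3 (quasi-likelihood test, robust, TMM scaling, filterByExpr), with 1 fit each for the panel (15 libraries, 15775 genes tested), the pretreatment experiment (24 libraries, 15183 genes) and HepG2 (4 libraries, 13349 genes). p-values were adjusted by the Benjamini-Hochberg method over all genes tested in each of 23 comparisons, and an adjusted p under 0.05 was called. The 4 panel vehicle libraries, 2 with DMSO and 2 with PBS, formed 1 control. An interaction is the difference between the responses after BRM014 and after DMSO, and the SE was computed from the log2 fold change and the F statistic. The method was also run on simulated counts, with results that are not reported here. Alternatives were DESeq2 1.42.0, its size factors in edgeR, no filter on low counts, a replicate block, a fit of the compared groups alone, 1 vehicle alone, and each library left out in turn.

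The 10 genes and the lists of other genes were chosen with earlier results of these data known. Genes of a list are named by a fixed rule, up to 3 called genes per list and comparison with the smallest p in the panel (Dex, IFNg) and for BRM014 at 6 h, and IKZF4, IKZF5, POU2F1, POU2AF2 and POU2AF3 as family members. Some genes that this rule names are not reported here. The labels do not say whether same-numbered libraries belong together, and the main fits treated them as unpaired. The deviations of same-numbered libraries correlated between -0.0944 and 0.0831. These values run over all tested genes, so they cannot show whether such libraries were handled together. Replicates of a group differed by more than sampling noise in every group (lowest chi-square per degree of freedom 2.52). GM12878 libraries held 12.9 to 22.9 M counts and HepG2 libraries 3.06 to 19.9 M. Intervals and floors cover counting error only.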

Additional observations from a re-analysis of the deposited data

Results flagged for a closer look

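For 1 gene the response to Dex differed between pretreatments by a test of the difference itself. PAX5 changed by -0.39 with Dex at 6 h after BRM014 and by -0.74 after DMSO, a difference of 0.35 (adjusted p = 0.00248, edgeR's quasi-likelihood test).

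For other genes the effect differed between 1 h and 6 h by the same kind of test. The effect of BRM014 was lower at 6 h than at 1 h for BACH2 by -3.10, POU2AF1 by -1.09, PRDM1 by -0.67, SPIB by -0.64, IKZF3 by -0.42 and IKZF1 by -0.27 on the log2 scale. The BACH2 value rests on few counts, with 0 in 1 library, and was -7.21 without BRM014+vehicle replicate 1 of 6 h and -2.05 without replicate 2. The calls for POU2AF1, PRDM1 and IKZF3 held in all alternatives, while those for BACH2, SPIB and IKZF1 were lost in 5 of 12, 6 of 13 and 4 of 13. The effect of Dex after DMSO differed between the times by -0.75 for PAX5, -0.67 for SPIB and 0.28 for IKZF1. The PAX5 call held in all 13 alternatives, and those for SPIB and IKZF1 were lost in 8 and 6 of 13. The effect of IFNg after DMSO differed by -0.46 for PRDM1 and -0.37 for IKZF1, calls lost in 8 and 5 of 13 alternatives.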

How the results depend on the processing

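Of the values for single genes under the alternatives, 2366 kept their side of the threshold or, for Dox, stayed close to their value. A further 81 lost a call, 18 gained one and 2 moved. None that was called in either fit turned, and the direction of values called in neither fit was not compared. Those that moved were of Dox with a pseudocount of 0.1 CPM in place of 1, -0.31 for BACH2 and 0.22 for BCL6. Numbers of called genes that moved by over 1.5 times follow, with the reported count in brackets; the cause was not tested. Without a filter on low counts they were 73 for IL2 (32), 22 for TNF (3), 20 for LPS (0), 64 for Dex at 1 h after BRM014 (42), 27 for IFNg at 1 h after BRM014 (16), and 38 for the interaction with Dex at 1 h (18), 31 with IFNg at 1 h (10) and 84 with IFNg at 6 h (30), where 1 of the 10 members was called (0). Whether same-numbered replicates belong together is not given in the labels. With the replicate block the counts were 5 for TNF (3) and 16 for LPS (0). DESeq2 gave 6 for TNF, and 16 and 51 for the interactions with IFNg at 1 h and 6 h. Against DMSO alone the counts were 98 for IL2, 38 for TNF and 35 for LPS, with 1 member called for IL2 and 1 for TNF (0 each), and against PBS alone 10 for IL2 and 0 for TNF. With no other groups in the fit they were 159 for Dex at 1 h after DMSO (92), 134 for IFNg at 1 h (78) and 331 at 6 h (1005) after DMSO, 438 for IFNg at 6 h after BRM014 (269), 32 and 11 for the interactions with IFNg at 1 h and 6 h, and 145 for the change of the IFNg response with time (305). Members called in these fits were 1 for IFNg at 6 h after DMSO (4), 2 for the interaction with Dex at 6 h (1) and 0 for the change of the IFNg response (2). With 1 library left out, the counts of all genes ranged from 1041 to 2021 for IFNg in the panel (1872), 11 to 55 for IL2, 0 to 8 for TNF and 0 to 5 for LPS. They ranged from 61 to 76 for Dex at 1 h after DMSO, 26 to 33 at 1 h and 751 to 837 at 6 h after BRM014 (1179), 50 to 56 for IFNg at 1 h and 665 to 1012 at 6 h after DMSO, 10 to 12 at 1 h and 172 to 212 at 6 h after BRM014, and 148 to 199 for BRM014 at 1 h (312). For the interactions they were 8 to 14 with Dex at 1 h, 269 to 375 with Dex at 6 h (419), 6 to 9 with IFNg at 1 h and 9 to 163 with IFNg at 6 h. For the change of the IFNg response with time they were 154 to 460. Members called ranged from 1 to 2 for IFNg at 1 h after DMSO (2), 2 to 4 at 6 h after DMSO (4), 1 to 2 at 6 h after BRM014 (3), 0 to 3 for the interaction with IFNg at 6 h (0), and, for the change with time, 3 to 6 for BRM014 (6), 1 to 2 for Dex (3) and 0 to 4 for IFNg (2). The order of the members by level was the same with CPM per kilobase as with TPM in all 220 comparisons of rank. Both scale the same counts to the same transcript lengths, so the order could hardly differ and this is no check of the levels. BCL6, BACH2 and EBF1 had few counts in GM12878, and depth limits what can be read from them.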
